A study of Mus musculus with 6 samples.

Results

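RNA levels of 46 genes of DNA replication and of the passage from G1 into S phase were compared between leukaemic mouse B cells with and without gamma-catenin, which is also called plakoglobin and is encoded by Jup. The genes were taken from a list of subunits and regulators of the replication machinery, chosen with earlier results of these data known. All 46 listed genes were measured, each on the brightest of its probe sets, out of 21789 probe sets with exactly 1 gene symbol. The KO group (genotype Jup-/-) and the WT group (Jup+/+) held 3 samples each, labelled as biological replicates on the C57BL/6 background, with 1 array per sample. Both groups share every other step. Fetal liver cells of either genotype (CD45.2+) rebuilt the blood of CD45.1+ hosts, the marrow of these chimeras was transduced with a retrovirus for BCR-ABL1 and green fluorescent protein (GFP), and the cells were transplanted into lethally irradiated CD45.1+ recipients. At day 21, donor B cells (CD45.2+) were sorted that were positive for GFP, B220 and BP-1, so the cells of both groups were transformed by a virally expressed oncogene. The knockout was present in all cells derived from the donor liver and not in B cells alone. No source used here says whether samples of a group came from separate recipients, and p-values measure only the spread between these samples.

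Before a cell divides it copies its genome from many origins. In G1 the origin recognition complex (ORC), together with Cdc6 and Cdt1, loads rings of the MCM proteins onto DNA, a step called licensing. At the start of S phase the kinases Cdc7-Dbf4 and cyclin E-CDK2 turn each ring into an active helicase with Cdc45 and the GINS complex, and polymerases, sliding clamp and ligase follow behind it. E2F transcription factors switch on many of these genes when cyclin D and cyclin E kinases inactivate the retinoblastoma protein. BCR-ABL1 is a constantly active kinase that drives precursor B cells into cycle.

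The arrays carried the labelled cells. All 9 measured genes of the B lineage and the sort gate lay above the array median on every array. Among them were Cd79a, Ebf1, Pax5, Vpreb1, Igll1 and the gate's Enpep and Ptprc, of which Ptprc encodes CD45 and is not particular to B cells. The mean level of the 9 genes was 12.58 to 12.67 in KO and 12.55 to 12.59 in WT on the log2 scale, and 6 of the 9 had a higher KO mean. The gate's own genes differed without overlap in opposite directions, Enpep by -0.23 and Ptprc by 0.19 (limma adjusted p = 0.5 and 0.554). Jup itself measured 7.04, 7.06 and 7.27 in KO against 8.04, 7.62 and 8.51 in WT, a log2 difference of -0.93 without overlap (limma adjusted p = 0.171, not past 0.05). Markers of other cells were not even between the groups. Of 15 myeloid markers 13 had a higher KO mean, and the mean level of the list was 8.44 to 8.53 in KO and 7.62 to 8.11 in WT. For 6 mature B cell markers, all with a higher KO mean, these ranges were 8.74 to 9.12 and 8.05 to 8.59. The median log2 difference was 0.64 for the myeloid list and 0.63 for the mature B cell list. At limma adjusted p under 0.05, 3 of the 15 myeloid markers passed, all higher in KO. Of all 21789 probe sets, 11 passed higher and 15 lower. No mature B cell marker passed. Of 9 erythroid markers 1 passed, higher in KO, and of 10 stromal and endothelial markers 1, lower in KO. None of 9 T and NK cell markers lay above the array median on all arrays. In sorted bulk samples, fewer cycling cells and less RNA per cycling cell cannot be told apart, and the part of the other cells' RNA in the values that follow was not tested.

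The replication genes differed little between KO and WT. At limma adjusted p under 0.05 the count was 0 of 46, where 0.119% of all probe sets passed. At an unadjusted p under 0.05, 3 members were lower in KO (Ccne1, Orc1 and Prim1), or 6.52% of the list against 4.73% of all probe sets, and 0 were higher against 4.48%. The largest differences were -0.44 for Orc1 and 0.30 for E2f1. For 44 of the 46 members the 95% interval of the difference lay within 1.5-fold in both directions, Orc1 and E2f1 being the others, and for 24 it lay within 1.2-fold. Those limits were chosen after the values were seen. The KO mean was below the WT mean for 34 members (73.9%, against 55.8% of all probe sets) and above it for 12. These counts were 24 and 22 without KO replicate 3, and 40 and 6 without KO replicate 1. The median difference was -0.046, against -0.016 for all probe sets and -0.013 for the 8895 probe sets at least as bright as the dimmest member. This median rested on single arrays: it was -0.00304 without KO replicate 3, -0.079 without KO replicate 1 and -0.029 without WT replicate 1. The count at an unadjusted p under 0.05 in either direction was 7 without KO replicate 1 (15.2% of the members, against 10.3% of all probe sets in that fit), where it was 3 with all arrays (6.52% against 9.22%).

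**Figure D1:**
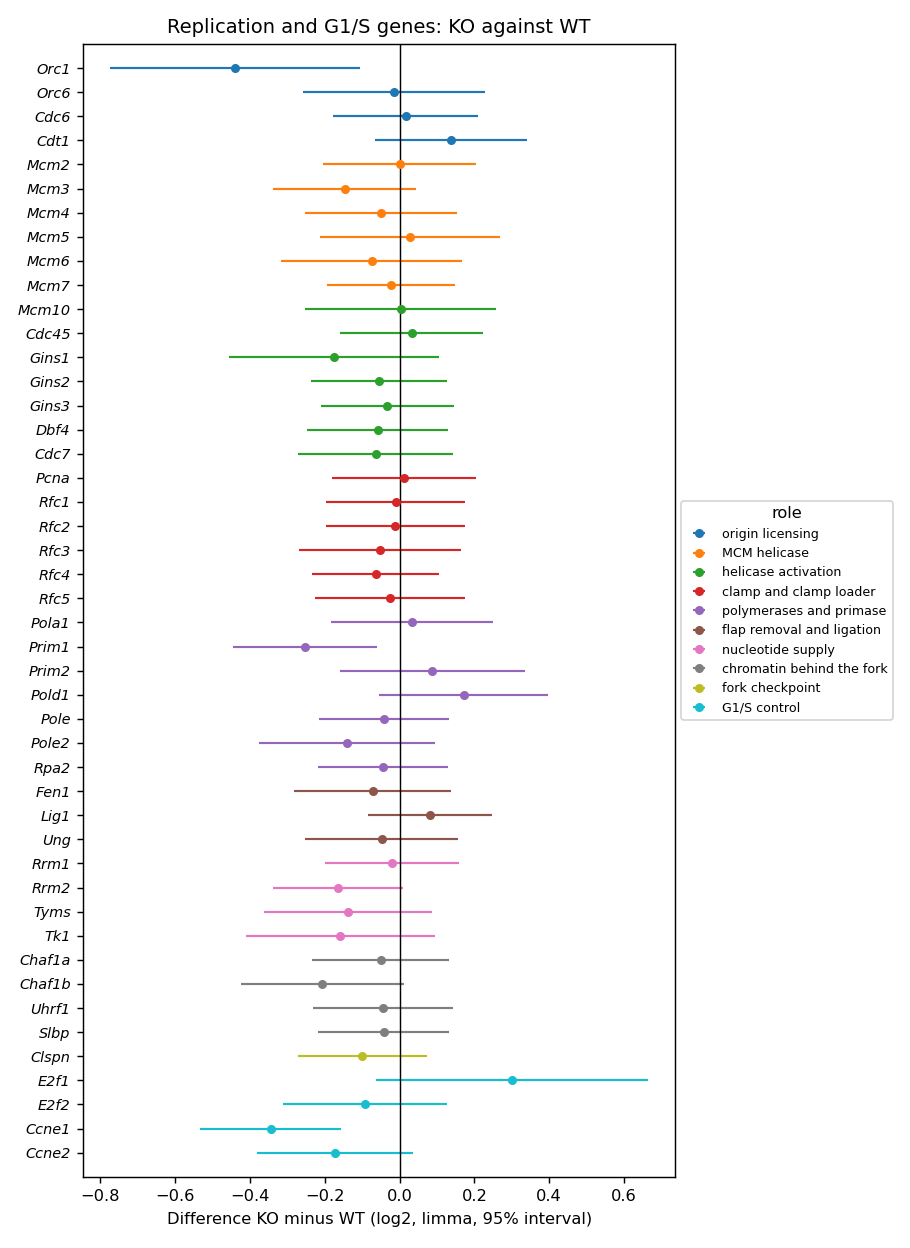
Difference KO minus WT in log2 units for each of the 46 genes (points), with the 95% interval of the limma fit (bars, 3 arrays per group), coloured by role. The points lie between -0.44 (Orc1) and 0.30 (E2f1), and the intervals of Orc1, Prim1 and Ccne1 end below 0.

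Ccne1, Orc1 and Prim1 had the lowest unadjusted p-values. Ccne1 encodes cyclin E1, which activates CDK2 at the entry into S phase. It measured 10.39, 10.21 and 10.21 in KO and 10.55, 10.63 and 10.66 in WT. All KO arrays were thus below all WT arrays, by a mean log2 difference of -0.34 (SE 0.08) or 1.27-fold (unadjusted p = 0.0028 and adjusted p = 0.23 in limma). Orc1 encodes the ORC subunit whose level is regulated through the cell cycle. It measured 8.43, 8.14 and 7.91 in KO and 8.81, 8.58 and 8.42 in WT, a difference of -0.44 (SE 0.15, limma adjusted p = 0.396), and KO replicate 1 overlapped with WT replicate 3. Prim1 encodes the catalytic subunit of primase, which makes the RNA primers. It measured 10.17, 9.93 and 10.06 in KO and 10.26, 10.32 and 10.32 in WT, without overlap, at a difference of -0.25 (SE 0.08, limma adjusted p = 0.399). Besides Ccne1 and Prim1, 2 members had all KO arrays below all WT arrays, Rrm2 and Clspn. These 4 are 8.7% of the members, and 8.08% of all probe sets had that order; 0 members had the opposite order, against 5.94% of all probe sets.

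**Figure D2:**
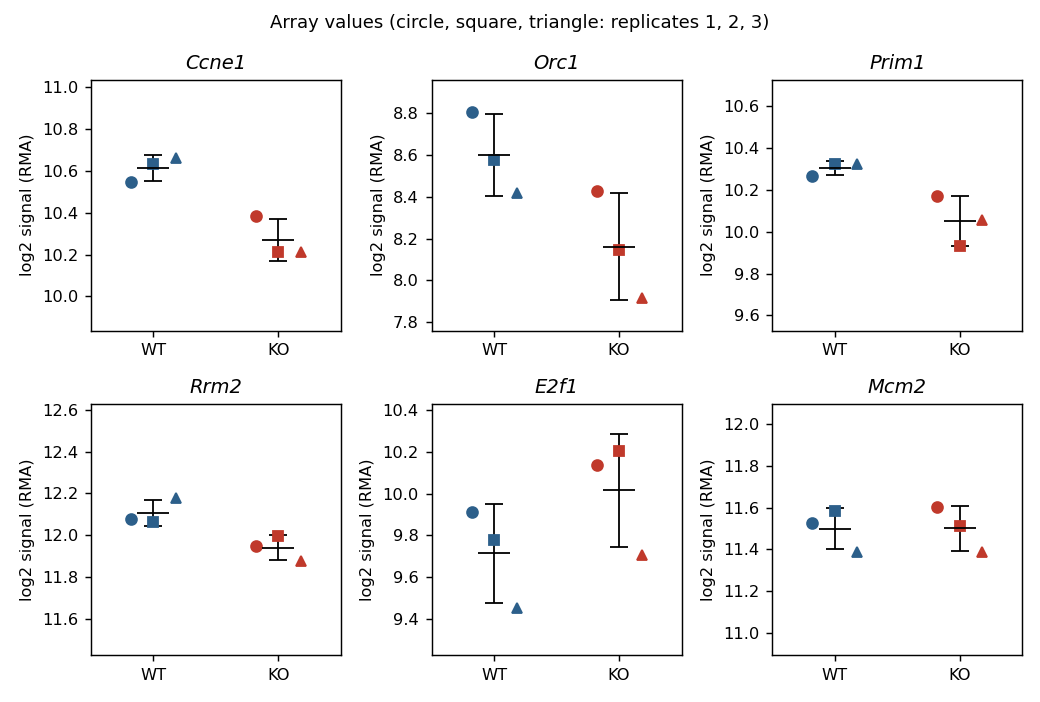
Log2 signal of 6 genes on each array (WT blue, KO red; circle, square and triangle for replicates 1, 2 and 3), with the group mean and SD (n = 3) in black and a span of 1.2 log2 units on every axis. KO lies below WT without overlap in Ccne1, Prim1 and Rrm2, overlaps in Orc1 and E2f1, and in Mcm2 has the same mean of 11.50.

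The other 3 licensing genes of the list had groups that overlapped. Orc6, another ORC subunit, measured 10.55, 10.36 and 10.29 in KO and 10.57, 10.26 and 10.41 in WT. Cdc6, which loads the MCM ring, measured 8.85, 8.71 and 8.64 in KO and 8.80, 8.68 and 8.68 in WT. For both, the groups overlapped and the difference was near 0 (-0.014 and 0.016), with its sign turning in several alternatives. Cdt1, the other loading factor, was at 10.05, 9.91 and 9.79 in KO and 9.85, 9.76 and 9.74 in WT. Its difference of 0.14 was the highest of the 4 licensing genes of the list, and the 95% interval, from -0.07 to 0.34, included 0.

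The products of the MCM genes form the six-sided helicase ring, and 4 of the 6 genes had a lower KO mean. Mcm2 measured 11.60, 11.51 and 11.39 in KO and 11.53, 11.58 and 11.39 in WT, and the group means were equal at 11.50. The differences were -0.15 for Mcm3, -0.05 for Mcm4, 0.03 for Mcm5, -0.07 for Mcm6 and -0.02 for Mcm7. Only Mcm3 kept its sign when arrays were left out or rescaled. It measured 10.95, 10.81 and 10.71 in KO and 10.93, 11.00 and 10.98 in WT, and its 95% interval ran from -0.34 to 0.05. For Mcm7, at 11.91, 11.90 and 11.80 against 11.88, 11.95 and 11.85, the interval ran only from -0.19 to 0.15.

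Genes that turn the loaded ring into a moving helicase gave 5 lower and 2 higher KO means out of 7. Mcm10, a scaffold of this step, measured 9.73, 9.69 and 9.50 in KO and 9.80, 9.44 and 9.68 in WT. Cdc45 measured 9.82, 9.81 and 9.67 against 9.76, 9.81 and 9.63. In both the groups overlapped, and the differences were 0.0032 and 0.03 with a sign that turned in some alternatives. Of the GINS subunits, Gins1 differed by -0.18 (95% interval -0.46 to 0.11), Gins2 by -0.05 and Gins3 by -0.03. The kinase gene Cdc7 differed by -0.06 and its activator Dbf4 by -0.06.

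The 6 genes of the sliding clamp and its loader all lay within 0.064 of 0, with 5 lower KO means. Pcna, the clamp that holds polymerases on DNA, measured 13.21, 13.13 and 12.99 in KO and 13.15, 13.09 and 13.05 in WT, a difference of 0.01 with a 95% interval from -0.18 to 0.20. A further probe set of Pcna gave nearly the same values and a difference of 0.02. The loader genes Rfc1 to Rfc5 differed by between -0.06 (Rfc4) and -0.010 (Rfc1), and among the genes of clamp and loader only Rfc4 kept its sign in all alternatives. Rfc2 measured 10.02, 10.03 and 10.01 in the KO arrays, the narrowest spread of any member in KO (SD 0.0075), and 10.12, 10.06 and 9.91 in WT.

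Polymerase genes did not move as a block. Pold1, the catalytic subunit of the lagging-strand polymerase delta, measured 10.87, 11.07 and 10.85 in KO and 10.71, 10.91 and 10.67 in WT, at a difference of 0.17 (95% interval -0.05 to 0.40). Pole, the catalytic subunit of the leading-strand polymerase epsilon, differed by -0.04 and its partner Pole2 by -0.14. Pola1, which works with primase, differed by 0.03, and Prim2, the large primase subunit, by 0.09 (11.04, 11.34 and 11.26 against 11.21, 10.96 and 11.22), while Prim1 was at -0.25. The 2 primase subunits therefore had differences of opposite sign, a contrast that was not tested. Rpa2, of the complex that coats single-stranded DNA, differed by -0.04. Behind the fork, the ligase gene Lig1 differed by 0.08, the flap nuclease gene Fen1 by -0.07 and Ung, which removes uracil from DNA, by -0.05.

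Nucleotide supply had lower KO means for all 4 genes, though Rrm1 turned to 0.018 after a further quantile normalization and also when single arrays were left out. Rrm2 encodes the S-phase subunit of ribonucleotide reductase, the enzyme that makes deoxynucleotides. It measured 11.95, 12.00 and 11.88 in KO and 12.07, 12.06 and 12.18 in WT, so the groups did not overlap. Its difference was -0.16 (SE 0.08, limma adjusted p = 0.577). The partner subunit Rrm1 measured 12.43, 12.39 and 12.30 against 12.36, 12.48 and 12.34, a difference of -0.02. Tyms, which makes thymidylate, differed by -0.14, and Tk1, the thymidine kinase of cycling cells, by -0.16. Tk1 measured 10.27, 10.16 and 9.88 in KO and 10.30, 10.32 and 10.16 in WT, and a further probe set of the gene gave -0.17.

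Chromatin and checkpoint genes were also on the lower side of 0. Chaf1b, a subunit of the chromatin assembly factor that places histones on new DNA, measured 10.82, 10.57 and 10.76 in KO and 10.81, 10.94 and 11.02 in WT, with KO replicate 1 just above WT replicate 1. Its difference was -0.21 (95% interval -0.42 to 0.01), against -0.05 for its partner Chaf1a. Uhrf1, which guides the copying of DNA methylation, and Slbp, which binds histone mRNA, both differed by -0.04, and these and Chaf1a turned above 0 without KO replicate 3. Clspn, the claspin adaptor between stalled forks and the kinase CHK1, measured 8.95, 8.85 and 8.95 in KO and 9.005, 9.09 and 8.96 in WT. Its groups were separated only by a small gap, and the difference was -0.10 (SE 0.08, limma adjusted p = 0.776).

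The regulators at the G1/S boundary differed in sign, with 3 of 4 KO means lower and E2f1 higher. E2f1, an activator of replication genes, measured 10.14, 10.20 and 9.71 in KO and 9.91, 9.78 and 9.45 in WT. The third KO array lay below WT replicates 1 and 2, and the difference of 0.30 (SE 0.16) did not pass (limma adjusted p = 0.637). E2f2, a related activator, differed by -0.09, with 10.76, 10.90 and 10.94 in KO and 11.08, 10.80 and 10.99 in WT. Ccne2, the gene of cyclin E2, measured 9.99, 9.95 and 9.75 in KO and 10.11, 10.12 and 9.97 in WT, a difference of -0.17 (95% interval -0.38 to 0.04). Both cyclin E genes thus had lower KO means, while E2f1 was higher and kept its sign in all 15 alternatives.

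**Figure D3:**
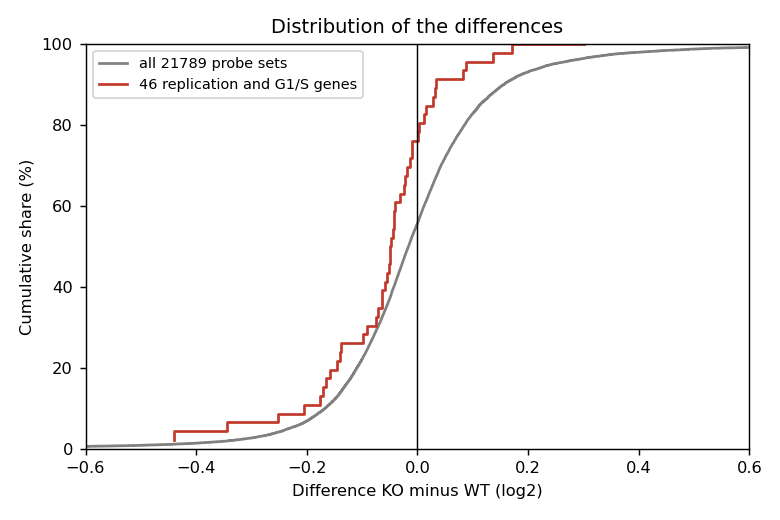
Cumulative share in percent of differences KO minus WT (log2) for the 46 genes (red) and all 21789 probe sets (grey). The red curve is steeper, with a median of -0.046 against -0.016.

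The members varied together across the KO arrays. Within the KO group, replicate 3 was the lowest array for 37 of the 46 genes (80.4%), against 39.2% of the 8895 probe sets of at least the same brightness, and replicate 1 the highest for 38 (82.6%, against 42.8%). The members lowest in another KO array were Gins2, Dbf4, Rfc1, Prim1, Chaf1b and Clspn (replicate 2) and Prim2, Lig1 and E2f2 (replicate 1). In WT, replicate 3 was the lowest for 27 genes (58.7%, against 54% of those bright probe sets), and replicates 1 and 2 were each the highest for 19 (41.3%, against 66.6% and 17.5%). Averaged over the 46 genes, the deviation from the WT mean was 0.032, -0.052 and -0.144 in KO replicates 1, 2 and 3 and 0.034, 0.0068 and -0.041 in the WT replicates. KO replicate 1 therefore lay among the WT arrays and the other KO arrays below them. By role, KO replicate 3 was lowest for the nucleotide supply genes (-0.241) and the licensing genes (-0.220), and at -0.082 for clamp and loader. The median SD within groups was 0.0999 for the members and 0.102 for the equally bright probe sets. For single members it ran from 0.048 (Lig1) to 0.254 (E2f1), with Orc1 at 0.228.

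Other cell cycle lists were fixed from textbook knowledge with earlier results of these data known. Not all of them ran like the members across the arrays. For 67 further replication genes the KO arrays were at 0.026, -0.022 and -0.078, in the same order as for the members. For 31 mitosis and G2/M genes they were at 0.017, -0.082 and -0.032, and for 23 MYC targets and ribosome biogenesis genes at 0.014, -0.299 and -0.199, both lowest in KO replicate 2. For the 11 measured genes of D cyclins, their kinases and CDK inhibitors, the KO arrays were at 0.042, 0.055 and 0.036. In each of the lists KO replicate 1 was nearest to or above the WT mean.

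**Figure D4:**
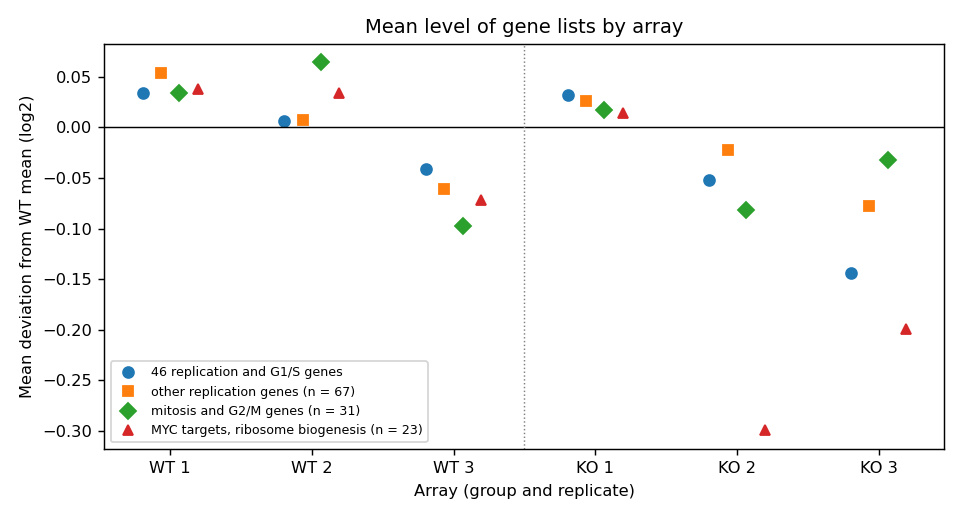
Mean deviation from the WT mean (log2) for the 46 genes and 3 other lists on each of the 6 arrays. The 46 genes are lowest in KO replicate 3 (-0.144), and the MYC and ribosome list in KO replicate 2 (-0.299).

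Of the 67 further replication genes, 45 had a lower KO mean (67.2%, against 55.8% of all probe sets) and 22 a higher one. In limma 0 passed after adjustment. Before adjustment, 4 were higher and 2 lower at p under 0.05, where 4.48% and 4.73% of all probe sets were. Their median difference was -0.048, and -0.019 without WT replicate 1, -0.025 without KO replicate 3, -0.074 without KO replicate 1 and -0.072 without WT replicate 3. The 3 highest by moderated t were Tfdp2, a dimerisation partner of E2F proteins (0.22), Orc5, an ORC subunit (0.24), and Rrm2b, the p53-induced reductase subunit (0.36). The 3 lowest were Rnaseh2c, of the nuclease that removes ribonucleotides (-0.24), the repressive E2f5 (-0.29), and Cdc25a, the phosphatase that activates CDK2 (-0.17). Tfdp2 measured 10.61, 10.78 and 10.76 in KO and 10.55, 10.47 and 10.46 in WT, without overlap, and Cdc25a measured 10.84, 10.74 and 10.69 against 10.95, 10.91 and 10.91, also without overlap. Samhd1, which degrades deoxynucleotides, had the largest difference of the list and was named after its value was seen. It measured 10.55, 11.35 and 10.89 in KO and 10.70, 10.50 and 9.83 in WT, at a difference of 0.59 (SE 0.25, limma adjusted p = 0.538).

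Of 31 mitosis and G2/M genes 22 had a lower KO mean (71.0%, against 55.8% of all probe sets) and 9 a higher one. Their median difference was -0.022, which turned to 0.000872 without KO replicate 2 and 0.0039 without WT replicate 2 and was -0.054 without KO replicate 1 and -0.081 without WT replicate 3. None of the 31 had an unadjusted p under 0.05 in limma or passed after adjustment. At that unadjusted level 4.73% of all probe sets were lower in KO and 4.48% higher. The 3 lowest by moderated t were the mitotic kinase gene Aurka (-0.18), the cytokinesis regulator Ect2 (-0.13) and Prc1, of the central spindle (-0.11). Ect2 measured 11.58, 11.56 and 11.50 in KO and 11.66, 11.73 and 11.64 in WT. In Ect2 and Prc1, 2 of the 31 genes, all KO arrays were below all WT arrays. Of all probe sets 8.08% had that order. The 3 highest were the kinetochore gene Cenpf (0.11), Mki67, which encodes the proliferation antigen Ki-67 (0.07), and Foxm1, a transcription factor of mitotic genes (0.07). Mki67 measured 12.44, 12.31 and 12.48 in KO and 12.33, 12.43 and 12.26 in WT, with overlap.

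Upstream of cyclin E, 8 of 11 measured genes of D cyclins, their kinases and CDK inhibitors had a lower KO mean and 3 a higher one. Their median difference was -0.083, and -0.041 without WT replicate 3. Of all probe sets 55.8% had a lower KO mean, and their median difference was -0.016. None of the 11 genes passed after adjustment in limma. At an unadjusted p under 0.05, 3 of them were higher and 1 lower, where 4.48% and 4.73% of all probe sets were. The 3 higher ones were Ccnd2, which encodes cyclin D2, at 0.85 (SE 0.21, limma adjusted p = 0.253), Cdkn1b, the gene of the CDK2 inhibitor p27, at 0.36 (SE 0.10, limma adjusted p = 0.33), and Cdkn2d, an inhibitor of cyclin D kinases, at 0.27. Cdkn1b measured 11.48, 11.57 and 11.70 in KO and 11.42, 11.12 and 11.13 in WT, without overlap. The 3 lowest by moderated t were the inhibitor genes Cdkn2a (-0.28) and Cdkn2b (-0.19) and the kinase gene Cdk6 (-0.14). Cdk6 measured 11.43, 11.27 and 11.03 in KO and 11.31, 11.44 and 11.39 in WT, with overlap.

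In the MYC and ribosome list, KO lay below WT for 22 of 23 genes, and the median difference of -0.17 was -0.105 without KO replicate 2. None passed after adjustment in limma, and 3 were lower and 0 higher at an unadjusted p under 0.05. Of all probe sets, 4.73% were lower and 4.48% higher at that level, and 55.8% had a lower KO mean. The 3 lower genes were the ribosome assembly gene Mrto4 (-0.27), Pa2g4 (-0.26) and Rrp9, of ribosomal RNA processing (-0.27). Mrto4 measured 8.59, 8.32 and 8.37 in KO and 8.74, 8.71 and 8.63 in WT, without overlap. The 3 highest by moderated t were Dkc1 (0.04), Rrs1 (-0.014) and Utp20 (-0.06), each with a sign that turned in some alternatives.

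Promoter sequences showed what part of the members share. RefSeq (GRCm38.p6) gave a window from 250 bases before to 50 bases after the start for 39 of the 46 genes, 6 of them with several windows. Each window was searched on both strands for the E2F consensus, spelled TTTCCCGC, TTTCGCGC, TTTGCCGC or TTTGGCGC, of which matches on opposite strands may overlap. At least 1 match was found for 16 of the 39 genes (41%), against 2.6% of all 27025 genes with a window and 5.35% of the 6510 genes at least as bright on the arrays as the dimmest member. The same words without their leading T were searched first, and the longer words were taken after those results had been seen. The shorter words were found for 26 genes (66.7%), against 10.9% and 20.9%. The MYC E-box CACGTG was in the windows of 12.8% of the members and 12.5% of those bright genes, and the CCAAT box in either orientation in 59% and 43.8%. A match is a description and no measured binding site. The 16 genes with an E2F consensus match had a median difference of -0.038 and the 23 with a window but no match -0.048. With the shorter words the order turned, at -0.051 for the 26 with a match and -0.025 for the 13 without, so these medians give no direction. The windows shown are those of Orc1, which has the lowest difference of the list and a match, of the 4 MCM ring genes with a match, with differences from -0.15 to 0.03, and of Ccne1, which has the lowest p and no match. Capitals mark the matches, and each line runs 5′ to 3′ on the gene's strand.
Orc1 (chr4:108579204-108579503, plus strand): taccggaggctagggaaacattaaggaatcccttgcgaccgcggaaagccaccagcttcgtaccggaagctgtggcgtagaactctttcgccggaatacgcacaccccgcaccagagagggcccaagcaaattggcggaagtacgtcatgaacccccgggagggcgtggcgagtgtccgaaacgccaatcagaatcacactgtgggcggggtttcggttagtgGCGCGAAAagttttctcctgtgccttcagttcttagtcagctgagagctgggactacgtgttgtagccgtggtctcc
Mcm3 (chr1:20820263-20820562, minus strand): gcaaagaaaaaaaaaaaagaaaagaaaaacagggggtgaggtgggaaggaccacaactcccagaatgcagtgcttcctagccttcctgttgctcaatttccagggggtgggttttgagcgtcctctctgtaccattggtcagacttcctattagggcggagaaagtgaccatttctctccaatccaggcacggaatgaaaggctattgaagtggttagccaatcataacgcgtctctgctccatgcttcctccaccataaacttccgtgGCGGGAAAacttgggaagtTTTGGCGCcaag
Mcm5 (chr8:75109259-75109558, plus strand): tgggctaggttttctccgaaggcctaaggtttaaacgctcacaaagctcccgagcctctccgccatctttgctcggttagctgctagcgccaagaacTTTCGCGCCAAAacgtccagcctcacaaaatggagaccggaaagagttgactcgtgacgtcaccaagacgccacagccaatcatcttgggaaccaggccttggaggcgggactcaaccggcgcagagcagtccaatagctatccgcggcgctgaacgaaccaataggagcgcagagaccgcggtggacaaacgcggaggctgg
Mcm6 (chr1:128359656-128359955, minus strand): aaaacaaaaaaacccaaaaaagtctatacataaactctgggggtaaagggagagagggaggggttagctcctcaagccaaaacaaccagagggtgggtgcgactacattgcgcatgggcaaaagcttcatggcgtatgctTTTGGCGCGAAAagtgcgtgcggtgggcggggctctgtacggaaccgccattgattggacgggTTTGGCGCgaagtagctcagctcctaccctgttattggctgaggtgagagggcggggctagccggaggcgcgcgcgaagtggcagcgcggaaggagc
Mcm7 (chr5:138171834-138172133, minus strand): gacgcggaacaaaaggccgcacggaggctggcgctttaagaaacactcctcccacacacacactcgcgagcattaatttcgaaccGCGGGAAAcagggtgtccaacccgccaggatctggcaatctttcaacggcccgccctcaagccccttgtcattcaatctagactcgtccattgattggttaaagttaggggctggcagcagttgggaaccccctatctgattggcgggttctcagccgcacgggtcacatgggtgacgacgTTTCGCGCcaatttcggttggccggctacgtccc
Ccne1 (chr7:38107441-38107740, minus strand): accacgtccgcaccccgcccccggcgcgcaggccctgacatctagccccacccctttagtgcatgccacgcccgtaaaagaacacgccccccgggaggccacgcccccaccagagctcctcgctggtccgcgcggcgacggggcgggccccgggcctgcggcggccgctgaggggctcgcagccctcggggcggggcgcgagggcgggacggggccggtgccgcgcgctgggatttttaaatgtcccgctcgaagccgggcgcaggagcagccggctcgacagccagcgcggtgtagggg

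The match of Orc1 lay on the opposite strand, 27 to 20 bases before the start. Mcm6 had the most matches of any member, 3, with 2 that overlap, and Mcm5 had an overlapping pair. Mcm2, the remaining ring gene with a window, had no match. Of the 22 matches in all windows, 14 began from 60 bases before to 50 bases after the start.

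**Figure D5:**
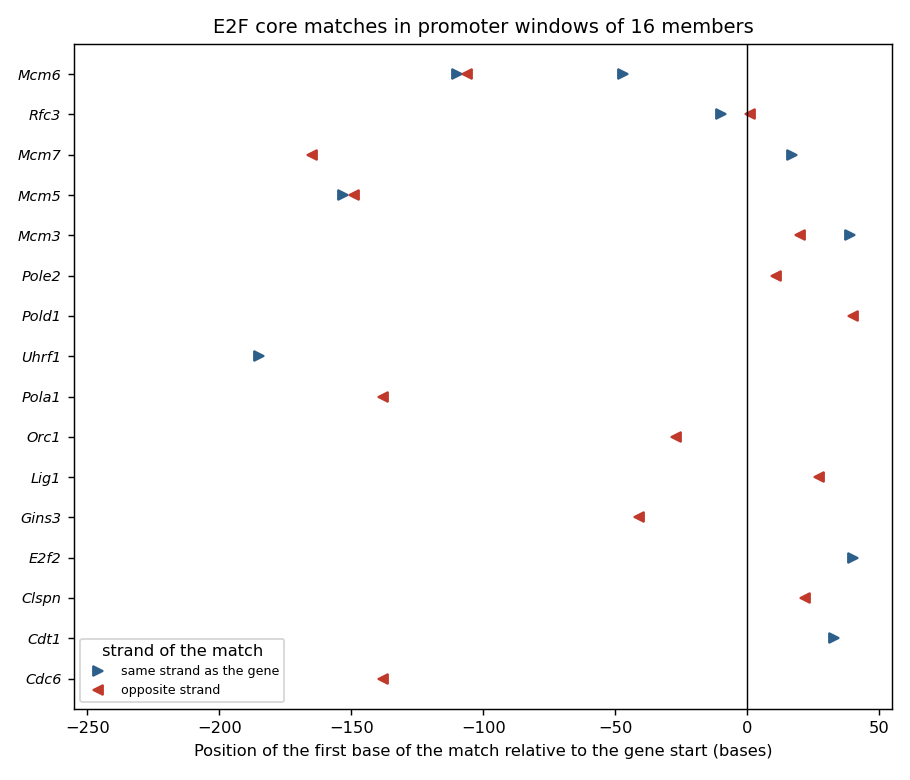
Positions of E2F consensus matches in bases relative to the gene start for the 16 genes with a match, with the strand of the match shown by arrow and colour. Of 22 matches, 14 begin between 60 bases before and 50 bases after the start.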

How the data were processed

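RNA of 6 sorted samples, 3 KO and 3 WT, was labelled with biotin and read on 1 Affymetrix array each. The deposited values are log2 signals that the authors obtained by RMA (Affymetrix Expression Console 1.1), as the submitters' processing notes record; the options are not given in the sources used here. RMA usually equalises the arrays, so a shift shared by all genes cannot be seen. Of 35556 rows, 21789 have exactly 1 gene symbol in the platform annotation and were tested. The groups were fitted in R 4.3.3 by limma 3.58.1 (lmFit, eBayes, two-sided, no covariate), with Benjamini-Hochberg adjustment over all 21789 probe sets and a threshold of 0.05. Differences are KO minus WT, SE and 95% intervals are moderated, and the fit was tested on simulated data. All members are named by role, and of the 4 other cell cycle lists the 3 highest and 3 lowest by moderated t. Members, lists and the E2F words were chosen with earlier results of these data known. Alternatives dropped dim probe sets, used all rows or 1 probe set per gene, averaged a gene's probe sets, changed the prior, weighted or rescaled arrays, blocked on the replicate number, left out each array or loosened the threshold. The number of arrays limits the precision.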

Additional observations from a re-analysis of the deposited data

How the results depend on the processing

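None of the 46 genes had a limma adjusted p under 0.05 in any of the 15 fits, and none had one under 0.1 in the fit reported. The lowest was 0.0698, for Ccne1 with array weights. The count at an unadjusted p under 0.05 was 3 (6.52% of the members, against 9.22% of all probe sets). It was 5 with a trended and robust prior (10.9% against 9.85%) and 6 with array weights (13% against 16.9%). With the replicate number as a block it was 5 (10.9% against 10.7%). With each array left out in turn it was 2 to 7. That is 4.35% to 15.2% of the members, against 5.14% to 16.1% of all probe sets. The sign held in all 15 alternatives for 25 genes, of which 20 were lower and 5 higher in KO, and turned in at least 1 for 21, none of which differed by more than 0.074 in size. With array weights Orc6 was at 0.053, Mcm2 at -0.033, Rfc1 at 0.0019, Pola1 at -0.021, Rrs1 at 0.075 and Dkc1 at -0.046, and after a further quantile normalization Cdc6 was at -0.0024, Rrm1 at 0.018 and Rrs1 at 0.019; the cause was not tested. With single arrays left out, the genes whose sign turned ranged as log2 differences over Cdc6 -0.043 to 0.063, Mcm2 -0.054 to 0.056, Mcm5 -0.049 to 0.13, Mcm10 -0.098 to 0.084, Pcna -0.040 to 0.074, Pola1 -0.020 to 0.11, Rrs1 -0.096 to 0.12, Dkc1 -0.085 to 0.21, Orc6 -0.091 to 0.063, Rfc1 -0.043 to 0.040, Mcm4 -0.11 to 0.016, Mcm6 -0.16 to 0.025, Mcm7 -0.043 to 0.013, Rfc5 -0.10 to 0.034, Pole -0.076 to 0.0010, Rrm1 -0.049 to 0.022, Chaf1a -0.079 to 0.0029, Uhrf1 -0.081 to 0.0038, Slbp -0.072 to 0.0072, Utp20 -0.14 to 0.066, Cdc7 -0.11 to 0.011, Rfc2 -0.072 to 0.035, Rfc3 -0.11 to 0.020 and Cdc45 -0.019 to 0.081. Rrs1, Dkc1 and Utp20 are from the MYC and ribosome list. The labels do not say that the replicate numbers pair the samples, although the descriptions of same-numbered samples share a digit of unstated meaning. Same-numbered deviations correlated at 0.104, -0.00431 and 0.275, so not every pair was above 0.1 and the samples were not treated as paired; KO replicate 2 correlated best with another number. With that block, E2f1 and Pold1 joined Ccne1, Orc1 and Prim1 at an unadjusted p under 0.05. The mean over a gene's probe sets has no p of its own and gave differences only. Depth does not apply to arrays. All 46 genes lay above the array median on every array. The medians of the D cyclin and the MYC and ribosome lists under the alternatives were added after the data were seen.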

Other observations

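For 7 members the promoter table places the start of another gene on the opposite strand within 1000 bases upstream, and 6 of these partners were measured. Orc1 and Prpf38a, a splicing factor gene, start 118 bases apart. Prpf38a measured 10.41, 10.23 and 10.12 in KO and 10.42, 10.32 and 10.33 in WT, a difference of -0.11 (SE 0.09, limma adjusted p = 0.815) beside -0.44 for Orc1. For the other pairs the member and its partner gave -0.02 for Mcm7 and 0.09 for Ap4m1, 0.08 for Lig1 and -0.0018 for Zswim9, -0.06 for Dbf4 and 0.05 for Slc25a40, -0.07 for Fen1 and -0.10 for Tmem258, and 0.03 for Cdc45 and 0.05 for Ufd1. None of these partners had an unadjusted p under 0.05 in limma, the lowest being 0.287 for Prpf38a.

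WT replicate 2 differed in sex-linked RNA, with Xist at 6.20 against 13.03 to 13.38 on the other arrays. Of Y-linked genes, Uty was at 10.09 there against 4.96 to 5.54 on the other arrays. Eif2s3y was at 8.90 against 3.52 to 3.98, and Kdm5d at 8.57 against 4.72 to 5.55. The part of this in the differences between KO and WT was not tested. Pola1 is the member on the X chromosome, and it measured 10.49 in WT replicate 2 and 10.33 and 10.36 in the other WT arrays.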
